A study of Homo sapiens with 24 samples.

Results

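Metallothioneins are small cysteine-rich proteins that hold zinc and copper inside the cell and also bind cadmium. The 8 genes described here are MT1A, MT1E, MT1F, MT1G, MT1H, MT1M, MT1X and MT2A, chosen by symbol among the 60675 gene ids of the series. Only 4 of the 8 were expressed at a level that could be tested: MT2A, MT1E, MT1X and MT1F. MT1A, MT1G, MT1H and MT1M were at or near the detection limit in every line and treatment. The data came from HCT116, a human colorectal cancer cell line, in 3 versions: p53 Mutant, p53 WT (wild type) and p53 Null. Each line received APR-246 (20 uM) before irradiation (6 Gy), called the combination, or irradiation (6 Gy) alone, or APR-246 (20 uM) alone, or solvent. Each of the 12 groups had 2 libraries, collected 72 hours after irradiation, which gives 24 libraries. Every p53 status was represented by 1 line, so p53 status and other differences between the lines cannot be told apart.

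The metallothionein genes lie side by side in a cluster on chromosome 16. Their promoters carry metal response elements, short motifs bound by MTF1, the transcription factor that senses zinc. Zinc, copper and cadmium, glucocorticoids and oxidative stress are all known to raise metallothionein mRNA, and the proteins release zinc when their cysteines are oxidised. APR-246 is converted in cells to methylene quinuclidinone, which binds to cysteine thiols in proteins, mutant p53 among them, and to glutathione. In intestinal epithelium metallothioneins bind dietary zinc, and several MT1 genes are known to be silenced in carcinomas.

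Promoters of 3 of the 8 members could be matched to RefSeq (GRCh38.p14): MT2A, MT1X and MT1H. They are shown because MT2A and MT1X were above the count filter and MT1H was near the detection limit, although all 3 carry many metal response elements. Each sequence is the 250 bases before the annotated start, on the plus strand, at chr16:56608334-56608583 for MT2A, chr16:56682220-56682469 for MT1X and chr16:56669564-56669813 for MT1H. Capitals mark matches to the metal response element, searched as TGCACNC or TGCGCNC on both strands.
MT2A: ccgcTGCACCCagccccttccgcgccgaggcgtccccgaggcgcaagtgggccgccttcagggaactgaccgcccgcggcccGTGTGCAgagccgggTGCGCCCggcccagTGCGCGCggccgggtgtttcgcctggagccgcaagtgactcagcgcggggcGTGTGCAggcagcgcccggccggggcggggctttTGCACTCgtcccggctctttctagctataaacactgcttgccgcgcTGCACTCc
MT1X: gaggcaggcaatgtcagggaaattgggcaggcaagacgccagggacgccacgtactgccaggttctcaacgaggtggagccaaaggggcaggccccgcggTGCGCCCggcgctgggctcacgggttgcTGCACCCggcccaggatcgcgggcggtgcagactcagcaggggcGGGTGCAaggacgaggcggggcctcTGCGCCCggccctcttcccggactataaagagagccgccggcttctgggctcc
MT1H: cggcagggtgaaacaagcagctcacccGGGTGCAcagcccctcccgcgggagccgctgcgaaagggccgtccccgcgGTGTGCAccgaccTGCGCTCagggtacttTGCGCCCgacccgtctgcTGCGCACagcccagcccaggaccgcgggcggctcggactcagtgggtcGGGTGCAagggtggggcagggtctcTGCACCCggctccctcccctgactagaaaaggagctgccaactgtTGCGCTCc
Over the 300 bases that run from 250 before to 50 after the start, the element matched 8 times in MT2A, 4 times in MT1X and 8 times in MT1H. At least 1 match was present in 29.6% of the 35116 promoters of this length, at least 4 in 0.601% and at least 8 in 0.0199%. The TATA box (TATAAA, plus strand of the gene) was present in MT2A and MT1X and in 7.33% of all promoters, and was not matched in MT1H. The antioxidant response element (TGACNNNGC, both strands) had 1 match each in MT2A and MT1X and none in MT1H, against 13.3% of all promoters with at least 1. In MT2A that match overlapped the AP-1 motif TGACTCA, which 4.95% of all promoters carried. A match describes the letters only and does not show that a factor bound there.

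**Figure D1:**
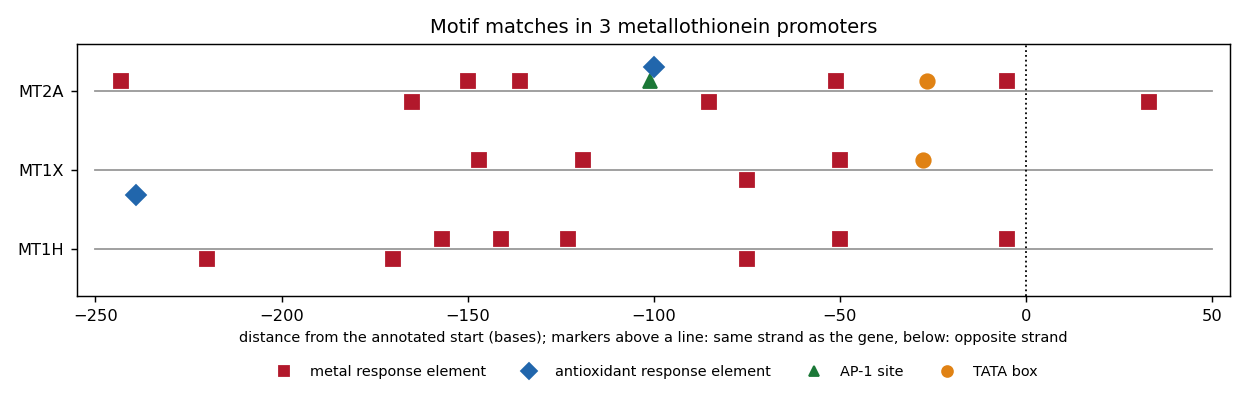
Positions of motif matches in bases from the annotated start (x axis) in the promoters of MT2A, MT1X and MT1H (rows). Squares are metal response elements, diamonds antioxidant response elements, triangles AP-1 motifs and circles TATA boxes, and MT2A and MT1H each hold 8 squares, MT1X 4.

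Libraries held 53184139 to 58058729 reads, and a floor of 3 reads corresponded to 0.0517 to 0.0564 CPM, the reads of a gene scaled to the reads of its library. The floor was set for counting error only. Mates seem to have been counted singly, so 3 reads can stand for fewer fragments. The floor may then not cover counting error in full, and counts just above it remain uncertain. The 10 epithelial markers summed to 5035 to 17971 CPM and 8 of them were above the floor in every library. The intestinal markers CDX1 and VIL1 were not, at medians of 0.0346 and 0.108 CPM, whereas CDX2 had a median of 44.0 CPM. The 6 blood cell markers summed to 0.231 to 3.01 CPM with PTPRC, CD3E and HBB at a median of 0. The 6 fibroblast markers summed to 11.8 to 69.0 CPM, mostly COL1A1, with COL1A2, DCN and LUM at a median of 0. The 3 endothelial and the 3 neural markers each stayed under 5 CPM in sum, at 0.741 to 3.91 CPM and 1.08 to 4.80 CPM. Within each library the log2 values of all genes also leaned on the GC content of the gene. This GC slope was below 0 in 10 of the 12 libraries numbered replicate 1. It was above 0 in 10 of the 12 numbered replicate 2. In each line it was also higher in irradiated than in solvent libraries of the same number. In WT cells it was -0.0572 and 0.0284 in solvent and -0.0149 and 0.0446 after irradiation. The slope comes from the same log2 values and is partly confounded with treatment, which limits fits that use it. Values from a fit with the slope as a covariate are printed where they change a call. Calls with a replicate block are named under the dependence on processing.

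MT2A, usually the most abundant metallothionein of human cells, dominated the family. It took 68.6 to 86.2% of all reads of the 8 members in each library, and MT1E took 11.7 to 29.5%. MT2A (chromosome 16, 56608199 to 56609497, plus strand, GENCODE 29) had a median level per length of 322 CPM per kilobase over the 24 libraries, with a range of 156 to 666. MT1E (56625475 to 56627112, plus strand) had a median of 83.2 CPM per kilobase, with a range of 48.1 to 170. MT1F (56657694 to 56660698) and MT1X (56682424 to 56684196), both on the plus strand, had medians of 2.90 and 2.46 CPM per kilobase. The 8 members together summed to 286 to 1040 CPM.

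The members near the detection limit were MT1M, MT1A, MT1G and MT1H, which lie among the tested genes of the same cluster. MT1M (56632233 to 56633986) had 25 reads in all 24 libraries together and never more than 3 in a library. MT1A (56638666 to 56640087) had 24 reads in all, with 12 libraries at 0 and 1 library above 3 reads. MT1G (56666731 to 56668065, the only member on the minus strand) had 62 reads in all, with 6 libraries above 3 reads and a highest count of 10 in a Mutant combination library. MT1H (56669814 to 56671129) had 67 reads in all, with 9 libraries above 3 reads and a highest count of 7. These 4 genes made up 0.00594 to 0.0515% of the reads of the 8 members, so no comparison between groups was made for them. Expression below the floor was not detectable at this depth, which does not show that it is absent.

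**Figure D2:**
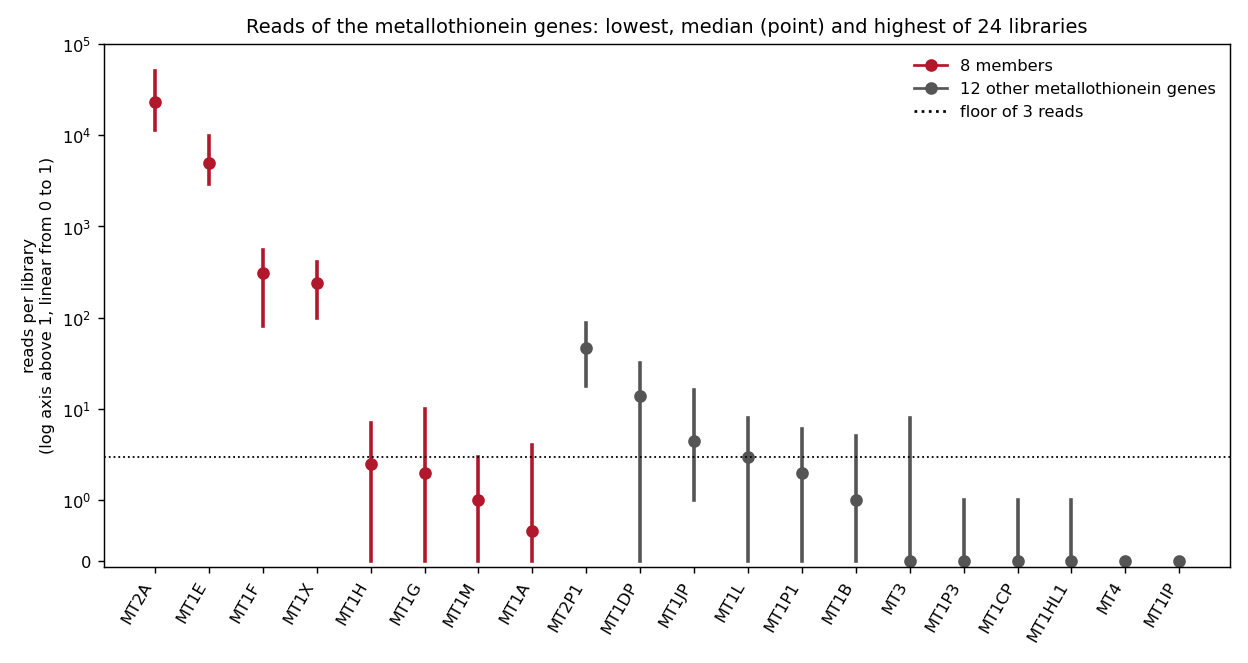
Reads per library (y axis, log above 1) of 20 metallothionein genes, with the lowest, the median (point) and the highest of 24 libraries, the 8 members in red and 12 other metallothionein genes in grey. MT2A, MT1E, MT1F and MT1X stand above 80 reads in every library, and the medians of the other members lie under the dotted floor of 3 reads.

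Members could be told apart by sequence to a large degree over 100 bases, and less well over 50. Of windows of 50 bases, 3.02% in MT2A, 7.10% in MT1E, 1.22% in MT1F and 18.3% in MT1X occurred in another gene. For the members near the detection limit this was 16.5% in MT1G, 15.8% in MT1H, 9.87% in MT1M and 5.76% in MT1A. Whether their few reads came from other members was not tested. No window of 100 bases, the read length, from the transcripts of MT2A, MT1E or MT1F occurred in transcripts of another gene in GENCODE 29. For MT1X 11.3% of such windows were shared with another gene, with ENSG00000259827 the main partner. This is an overlapping transcript on the same strand that had 0 reads in all 24 libraries. Treatment of reads that overlap or align to several genes is not given in the sources used here. The 0 reads of that transcript do not show that MT1X kept the shared reads, so MT1X values are uncertain to that extent.

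MT2A had its highest group mean in the Mutant line under every treatment. In Mutant cells it had 542 and 744 CPM after the combination, 592 and 623 CPM after irradiation and 556 and 676 CPM with APR-246, against 566 and 866 CPM in solvent. In WT cells it had 202 and 238 CPM after the combination, 216 and 289 CPM after irradiation and 348 and 371 CPM with APR-246, against 417 and 599 CPM in solvent. In Null cells it had 360 and 420 CPM after the combination, 334 and 397 CPM after irradiation and 427 and 336 CPM with APR-246, against 321 and 518 CPM in solvent. In WT cells all treated libraries lay below both solvent libraries, as did 4.23% of all genes tested for APR-246, 10.0% for irradiation and 10.8% for the combination, whereas in Mutant and Null cells treated and solvent libraries overlapped. The group means ran from 716 ± 212 CPM in Mutant solvent to 220 ± 25.6 CPM in WT combination (SD, n = 2 each), and of the 11 neighbouring pairs in that order only WT APR-246 and WT irradiation did not overlap.

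MT1E, the second most abundant member, was lower after irradiation in each line. In Mutant cells it had 111 and 141 CPM after the combination, 84.7 and 87.9 CPM after irradiation and 136 and 127 CPM with APR-246, against 164 and 162 CPM in solvent. In WT cells it had 78.8 and 99.6 CPM after the combination, 73.3 and 70.7 CPM after irradiation and 123 and 109 CPM with APR-246, against 179 and 122 CPM in solvent. In Null cells it had 60.9 and 70.2 CPM after the combination, 50.6 and 53.6 CPM after irradiation and 67.0 and 70.3 CPM with APR-246, against 76.4 and 87.1 CPM in solvent. Irradiated and solvent libraries did not overlap in any of the 3 lines, and the combination libraries also stayed below the solvent libraries of their line. On the deposited CPM 10.0% of all genes tested lay lower without overlap after irradiation in WT, 17.6% in Mutant and 8.83% in Null cells, and 10.8%, 9.53% and 11.4% did so after the combination in WT, Mutant and Null cells. After TMM scaling, which adjusts for the composition of the library, MT1E still did not overlap after irradiation in all 3 lines, but after the combination in WT cells only. Shares of all genes on this scale are given below for WT cells. They are not given for Mutant and Null cells, so MT1E is not set against other genes there. Its group means ran from 163 ± 1.05 CPM in Mutant solvent to 52.1 ± 2.17 CPM in Null irradiation (SD, n = 2 each), and 4 of the 11 neighbouring pairs in that order did not overlap.

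MT1X, another MT1 isoform, was lowest in irradiated WT cells, with and without APR-246. In Mutant cells it had 4.23 and 7.33 CPM after the combination, 4.70 and 5.92 CPM after irradiation and 4.64 and 5.55 CPM with APR-246, against 5.57 and 5.21 CPM in solvent. In WT cells it had 2.35 and 2.74 CPM after the combination, 1.80 and 2.67 CPM after irradiation and 3.13 and 5.36 CPM with APR-246, against 7.44 and 5.00 CPM in solvent. In Null cells it had 4.42 and 4.42 CPM after the combination, 3.53 and 3.46 CPM after irradiation and 3.15 and 3.48 CPM with APR-246, against 3.45 and 4.32 CPM in solvent. WT solvent held the highest group mean (6.22 ± 1.73 CPM) and WT irradiation the lowest (2.24 ± 0.613 CPM, SD, n = 2 each), and 2 of the 11 neighbouring pairs did not overlap.

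MT1F, an MT1 isoform at a similar low level, was lowest in irradiated WT cells. In Mutant cells it had 5.45 and 7.35 CPM after the combination, 6.02 and 5.39 CPM after irradiation and 5.26 and 6.33 CPM with APR-246, against 4.04 and 6.89 CPM in solvent. In WT cells it had 2.76 and 1.52 CPM after the combination, 2.13 and 2.75 CPM after irradiation and 3.38 and 8.37 CPM with APR-246, against 3.79 and 3.76 CPM in solvent. In Null cells it had 5.88 and 5.82 CPM after the combination, 5.92 and 6.43 CPM after irradiation and 9.45 and 5.52 CPM with APR-246, against 3.56 and 6.42 CPM in solvent. The 4 lowest libraries were the irradiated WT libraries with and without APR-246, and the WT APR-246 libraries stood far apart from each other. The highest group mean was that of Null APR-246 (7.48 ± 2.78 CPM) and the lowest that of WT combination (2.14 ± 0.875 CPM, SD, n = 2 each), and 1 of the 11 neighbouring pairs did not overlap.

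**Figure D3:**
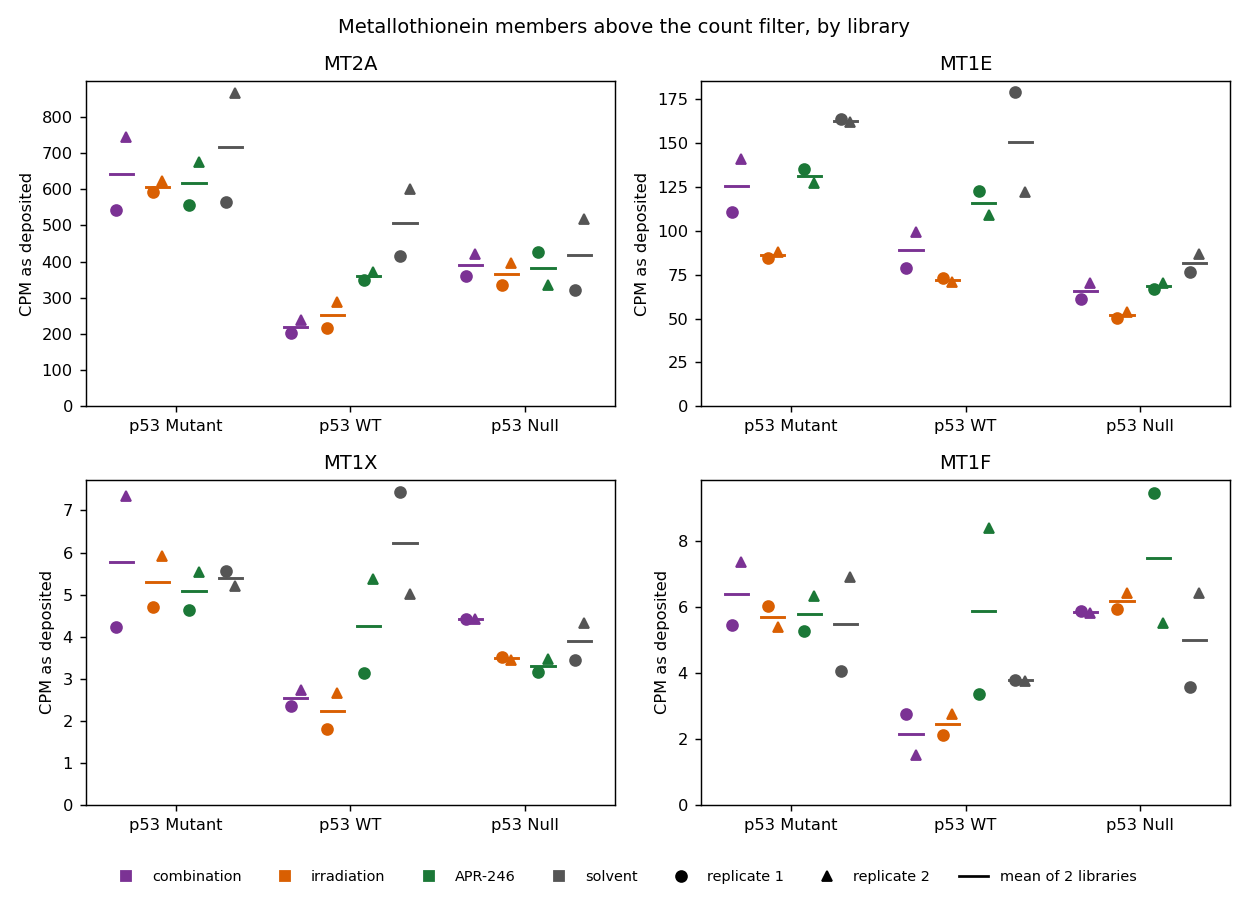
Deposited CPM (y axes, from 0) of MT2A, MT1E, MT1X and MT1F in each of 24 libraries, by line and treatment (colour). Circles are replicate 1, triangles replicate 2 and lines the mean of 2 libraries, and MT2A is seen between 542 and 866 CPM in the Mutant line and between 202 and 599 CPM in the WT line.

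MT1E was lower after irradiation in every line. Averaged over the 3 lines, MT1E fell by 0.88 ± 0.21 on the log2 scale (SE, 95% interval -1.33 to -0.44), to 0.542-fold its solvent level, with an adjusted p of 0.0118 (limma, Benjamini-Hochberg over 20668 genes). The fall was -1.03 ± 0.36 in WT, -0.82 ± 0.36 in Mutant and -0.80 ± 0.36 in Null cells, and it was seen in 3 of 3 lines. MT1E was the 1 member called of 4 tested in this averaged comparison, where 6.13% of all genes tested were called lower. The averaged differences of MT2A (-0.48 ± 0.33, adjusted p = 0.362), MT1X (-0.50 ± 0.25, adjusted p = 0.204) and MT1F (-0.06 ± 0.33, adjusted p = 0.919) did not pass. The median of the 4 members was -0.49, against -0.01 for all genes tested. In bulk RNA, fewer cells of a kind and less RNA per cell cannot be told apart. The labels do not say whether the replicates were separate cultures, so these p-values measure only the spread between these libraries. In the limma fit with the GC slope MT2A (-0.87 ± 0.09, adjusted p = 1.3e-07) and MT1X (-0.75 ± 0.15, adjusted p = 0.000548) also fell, so that 3 of the 4 members were called, where 18.5% of all genes were called lower.

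Within single lines no member passed the test for irradiation in the fit without a covariate or replicate block, although all 4 lay low in WT cells. In WT cells the irradiated libraries lay below both solvent libraries for 4 of 4 tested members on the deposited CPM, as did 10.0% of all genes tested. After TMM scaling this held for MT1E and MT1X only, against 15.2% of all genes. The log2 differences in WT cells were -1.00 ± 0.57 for MT2A (adjusted p = 0.542), -1.28 ± 0.43 for MT1X (adjusted p = 0.178) and -0.54 ± 0.57 for MT1F (adjusted p = 0.808), by limma. For MT1E the adjusted p was 0.202 in WT, 0.346 in Mutant and 0.396 in Null cells. Over the 3 lines limma, edgeR and DESeq2 each called 0 of 12 member tests, with 4 at an unadjusted p under 0.05 in each tool. All-gene calls by limma were 1.56% in WT, 0.0774% in Mutant and 0.677% in Null cells. With the GC slope limma called all 4 members lower in WT cells, from -0.90 ± 0.31 for MT1F (adjusted p = 0.0457) to -1.53 ± 0.26 for MT1X (adjusted p = 0.00026), where 8.97% of all genes were called lower. It also called MT2A and MT1E lower in Mutant cells (-0.74 and -1.16), where 7.75% of all genes were called lower, and in Null cells (-0.48 and -0.88), where 10.9% were.

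After the combination MT2A, MT1X and MT1F were lowest in WT cells, and limma without a covariate or replicate block called no member against solvent. Averaged over the 3 lines, MT1E differed from solvent by -0.61 ± 0.21 (adjusted p = 0.066), MT2A by -0.59 ± 0.33 (adjusted p = 0.264), MT1X by -0.41 ± 0.25 (adjusted p = 0.317) and MT1F by -0.20 ± 0.33 (adjusted p = 0.756). limma and edgeR thus called 0 of 4, whereas limma called 13.9% of all genes, and DESeq2 called MT1E (adjusted p = 0.0485). The share of all genes called by DESeq2 is not given. By limma 1 of the 4 had an unadjusted p under 0.05. In WT cells the differences were -1.45 ± 0.57 for MT2A (adjusted p = 0.246), -1.34 ± 0.43 for MT1X (adjusted p = 0.135), -1.00 ± 0.36 for MT1E (adjusted p = 0.2) and -0.96 ± 0.57 for MT1F (adjusted p = 0.51). All 4 members were lower in both WT combination libraries than in both WT solvent libraries, before and after TMM scaling, against 10.8% and 16.9% of all genes tested. In Mutant and Null cells 3 of the 4 differences lay between -0.21 and 0.20, and that of MT1E was -0.45 in Mutant and -0.37 in Null cells. Limma, edgeR and DESeq2 each called 0 of the 12 tests within lines, with 3 at an unadjusted p under 0.05 in each tool, while limma called 2.23% of all genes in WT, 0.348% in Mutant and 1.95% in Null cells. Once the GC slope was in the fit, MT2A and MT1E were called lower in all 3 lines and MT1X in WT cells, 7 of 12 tests, where 10.5% of all genes were called lower in WT, 8.87% in Mutant and 13.7% in Null cells. In the same fit MT2A (-0.69 ± 0.08), MT1E (-0.66 ± 0.09) and MT1X (-0.47 ± 0.15) were called lower over the lines, where 21.7% of all genes were called lower.

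APR-246 alone gave no call for any member. Averaged over the lines, the difference from solvent was -0.33 ± 0.33 for MT2A (95% interval -1.03 to 0.36), -0.38 ± 0.21 for MT1E (-0.82 to 0.06), -0.33 ± 0.25 for MT1X (-0.86 to 0.20) and 0.30 ± 0.33 for MT1F (-0.39 to 0.99). The intervals leave room for a rise of about 1 log2 unit in MT1F and for a fall of that size in MT2A. Limma, edgeR and DESeq2 each called 0 of the 12 tests within lines, none with an unadjusted p under 0.05, while limma called no gene of any kind in WT and Mutant cells and 0.131% of all genes in Null cells. Of the 4 averaged tests limma called 0, against 3.15% of all genes. On the deposited CPM MT1E lay lower without overlap in Mutant and Null cells, against 9.27% and 11.7% of all genes, but overlapped after TMM scaling. In WT cells MT2A lay lower on the deposited CPM, and MT1E and MT1X did after TMM scaling, against 4.23% and 7.67% of all genes on these scales. A fit with the GC slope called MT2A (-0.42 ± 0.08, adjusted p = 0.000521) and MT1E (-0.43 ± 0.09, adjusted p = 0.00158) lower over the 3 lines, where 13.9% of all genes were called lower. Within lines it called 0 of the 12 tests, against 0% of all genes in WT, 6.84% in Mutant and 15.0% in Null cells.

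**Figure D4:**
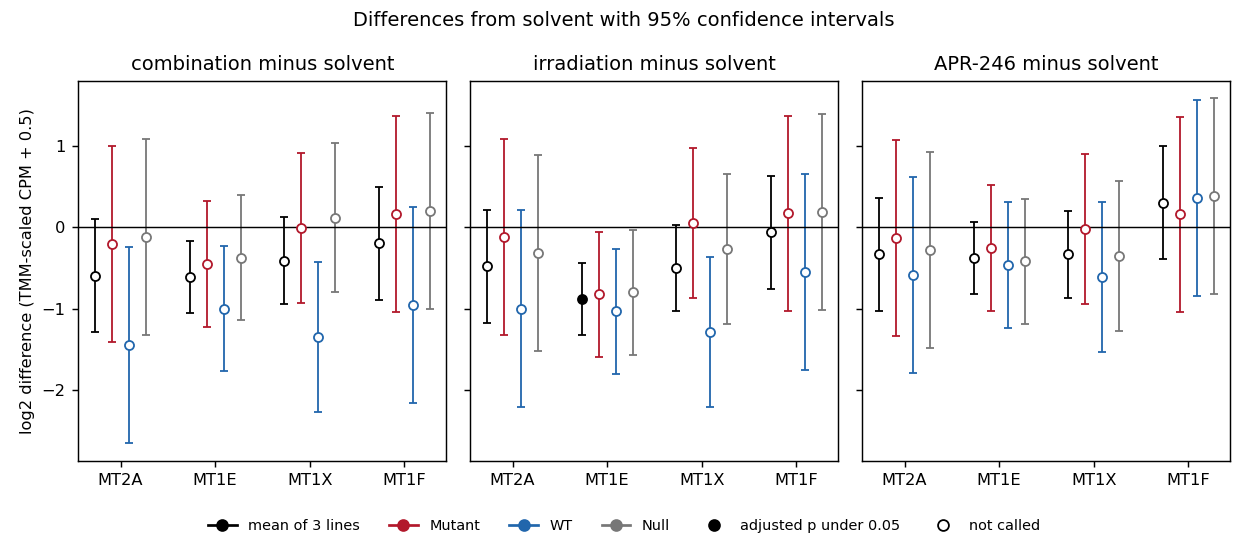
Log2 differences from solvent (y axis) with 95% confidence intervals for MT2A, MT1E, MT1X and MT1F after the combination, irradiation and APR-246, as the mean of 3 lines and in each line. The filled point, MT1E after irradiation (-0.88), is the only call, and the WT points for the combination and irradiation lie at or below -0.54.

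Adding APR-246 to irradiation moved no member by a called amount. Averaged over the lines, the combination minus irradiation was 0.28 ± 0.21 for MT1E (95% interval -0.17 to 0.72), 0.09 ± 0.25 for MT1X, -0.12 ± 0.33 for MT2A and -0.13 ± 0.33 for MT1F, and limma called no gene of any kind in this comparison. When the GC slope was added, MT1E was higher in the combination than after irradiation alone (0.44 ± 0.10, adjusted p = 0.0212), where 2.17% of all genes were called higher. Against APR-246 alone, the largest difference was that of MT1F in WT cells (-1.32 ± 0.57, adjusted p = 0.597). All 4 members were lower without overlap in WT combination than in WT APR-246 libraries, on both scales, against 11.0% and 16.2% of all genes. In Null cells MT1X was higher without overlap in the combination than in the APR-246 libraries on both scales, against 15.9% and 16.5% of all genes. MT1E was higher without overlap in the combination than after irradiation on the deposited CPM in WT, Mutant and Null cells, against 27.2%, 23.0% and 6.78% of all genes, and overlapped after TMM scaling in each. Over the 24 tests against irradiation or APR-246 within lines, limma, edgeR and DESeq2 each called 0, with 1 at an unadjusted p under 0.05 in each. Against APR-246 limma called 0.411% of all genes in WT cells, none in Mutant cells, 0.0242% in Null cells and 1.08% over the lines. The GC slope brought calls for MT2A (-0.60 ± 0.14) and MT1F (-1.08 ± 0.30) in WT cells, where 3.68% of all genes were called lower, and for MT2A (-0.27 ± 0.08) and MT1F (-0.50 ± 0.17) over the lines, where 8.65% were. In Mutant and Null cells it gave no member call against APR-246, where 0.368% and 2.63% of all genes were called.

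Differences between the lines were as large as those between treatments. Averaged over the 4 treatments, MT2A was higher in Mutant than in WT cells by 1.06 ± 0.28 (95% interval 0.45 to 1.66), or 2.08-fold, with an adjusted p of 0.0258 (limma). The 8 Mutant libraries held 542 to 866 CPM, with a median of 607, and the 8 WT libraries 202 to 599 CPM, with a median of 318, so the ranges overlapped only through 1 WT solvent library. This call was lost in 9 of the 24 fits that each left out 1 library, with an adjusted p of up to 0.0766. MT1E was higher in Mutant than in Null cells by 0.83 ± 0.18 (95% interval 0.45 to 1.22), or 1.78-fold, with an adjusted p of 0.00556 (limma). Its 8 Mutant libraries held 84.7 to 164 CPM, with a median of 131, and its 8 Null libraries 50.6 to 87.1 CPM, with a median of 68.6. This call held in all 24 such fits, as did the fall of MT1E after irradiation. In each of these line comparisons 1 of 4 members was called higher in Mutant cells, where 4.59% of all genes were called higher against WT and 5.92% against Null.

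MT2A also differed in level between Mutant and Null cells without a call. The 8 Null libraries held 321 to 518 CPM, below all 8 Mutant libraries, as was the case for 1.72% of all genes, but after TMM scaling the groups overlapped. Its difference was 0.67 ± 0.28 (adjusted p = 0.159), and with the GC slope 0.82 ± 0.07 (adjusted p = 2.9e-09). MT1F was lower in WT than in Null cells by a margin that just missed the threshold (-0.89 ± 0.28, adjusted p = 0.0533), and higher in Mutant than in WT cells by 0.79 ± 0.28 (adjusted p = 0.0973). DESeq2 called both of these, with adjusted p = 0.0138 and 0.0424. The share of all genes that DESeq2 called is not given, so these calls are not set against it. MT1X differed by 0.58 ± 0.22 between Mutant and WT (adjusted p = 0.111), and MT1E by 0.53 ± 0.18 between WT and Null (adjusted p = 0.074). For WT against Null limma and edgeR called 0 of 4 members, with 2 at an unadjusted p under 0.05 in limma, against 11.8% of all genes. Including the GC slope, limma called 3 members each higher for Mutant against Null, where 18.3% of all genes were called higher, and for Mutant against WT, where 15.8% were. It called 2 members for WT against Null, MT1E higher and MT1F lower, where 30.9% of all genes were called.

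**Figure D5:**
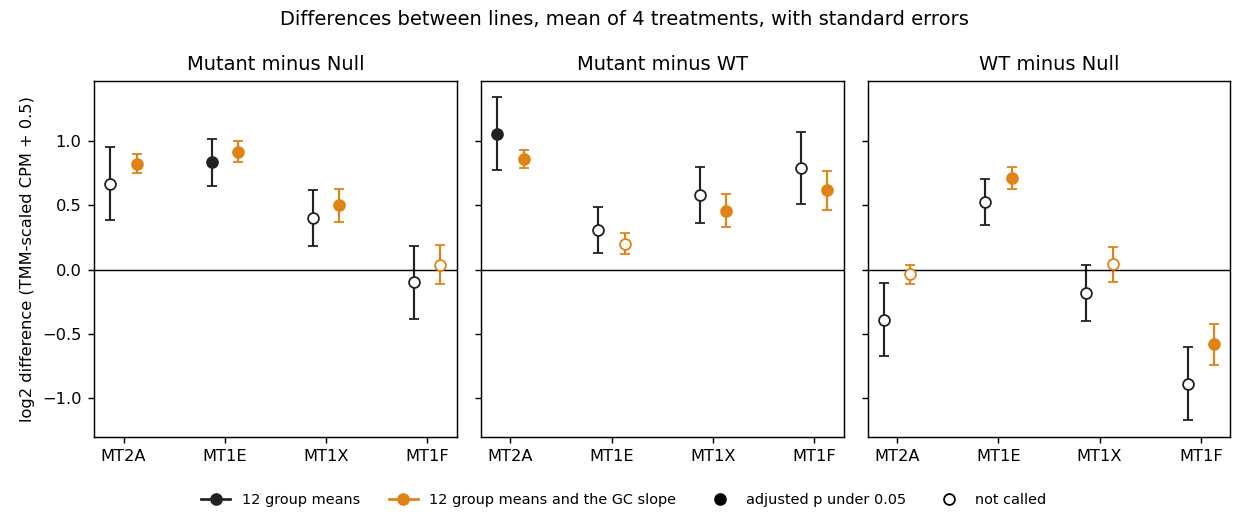
Log2 differences between lines (y axis), averaged over 4 treatments with standard errors, for MT2A, MT1E, MT1X and MT1F, from the fit of 12 group means (black) and with the GC slope (orange). Filled points have an adjusted p under 0.05, and in black these are MT1E in Mutant minus Null (0.83) and MT2A in Mutant minus WT (1.06).

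In solvent alone no member was called between lines. The largest difference was that of MT1E between Mutant and Null (0.82 ± 0.36, adjusted p = 0.385), followed by MT1E between WT and Null (0.75 ± 0.36, adjusted p = 0.711). Limma, edgeR and DESeq2 each called 0 of 12 tests, with 1, 1 and 0 at an unadjusted p under 0.05, while limma called 2.49% of all genes for Mutant against Null, 0.629% for Mutant against WT and 0.992% for WT against Null. Fitted with the GC slope, 5 of the 12 were called. These were MT2A (0.98 ± 0.14) and MT1E (1.02 ± 0.16) in Mutant against Null, where 8.08% of all genes were called higher, MT2A (0.46 ± 0.14) and MT1E (0.89 ± 0.16) in WT against Null, where 4.31% were, and MT2A (0.52 ± 0.14) in Mutant against WT, where 2.57% were.

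Epithelial and other marker lists moved beside these results, and their part in them was not tested. The 10 epithelial markers summed to 5035 to 9654 CPM in Mutant, 6609 to 17971 CPM in WT and 8219 to 16409 CPM in Null libraries, and of the 9 tested, 3 were lower in Mutant than in WT and 3 lower than in Null, against 5.07% and 6.11% of all genes. CDH1, which encodes E-cadherin, was also lower after irradiation (-0.76 ± 0.23, adjusted p = 0.0416). By treatment the 10 epithelial markers summed to 6271 to 16409 CPM after the combination and 8031 to 17971 CPM after irradiation. They summed to 5634 to 10186 CPM with APR-246 and 5035 to 14755 CPM in solvent. The medians of these sums were 12095, 11174, 8264 and 9938 CPM in that order. The sums were mostly keratins, with medians over all libraries of 5032 CPM for KRT8, 2856 CPM for KRT19 and 1188 CPM for KRT18. CDH1 had a median of 64.7 CPM, so the sum cannot show a fall of CDH1 or of other markers at such levels. Of the 3 blood cell markers tested, 2 were higher after irradiation over the lines, against 6.84% of all genes, at a sum of 1.03 to 2.50 CPM after irradiation and 0.231 to 1.04 CPM in solvent. SYP, a neural marker, was also higher after irradiation (0.87 ± 0.21, adjusted p = 0.0126), with the 3 neural markers at a sum of 2.07 to 4.80 CPM after irradiation and 1.08 to 2.34 CPM in solvent. The neural GFAP (-0.02) and RBFOX3 (0.44) were not called. After the combination CD14 (1.21 ± 0.18), the endothelial CDH5 (0.33 ± 0.09) and SYP (0.72 ± 0.21) were called higher over the lines, against 7.63% of all genes. The other blood, endothelial and neural markers tested were not called there. Between lines CD14 of the blood list (0.60 ± 0.15, adjusted p = 0.0176) and the endothelial VWF (0.68 ± 0.18, adjusted p = 0.0236) were higher in Mutant than in WT cells. By limma both were also lower in WT than in Null cells (CD14 -0.68 ± 0.15, adjusted p = 0.00699, VWF -0.81 ± 0.18, adjusted p = 0.00651). Neither was called between Mutant and Null. Of the neural markers, limma called SYP lower (-0.76 ± 0.18, adjusted p = 0.0109) and GFAP higher (0.19 ± 0.06, adjusted p = 0.0398) in WT than in Null cells. RBFOX3 (-0.14) was not called there, where 5.74% of all genes were called lower and 6.01% higher. In solvent GFAP was also higher in WT than in Null cells (0.64 ± 0.12, limma, adjusted p = 0.0089). The endothelial CDH5 (-0.01) and PECAM1 (0.12) were not called between Mutant and WT. The fibroblast marker PDGFRB was lower in Mutant than in Null cells (-0.52 ± 0.12, adjusted p = 0.00852). The 3 endothelial markers summed to 1.80 to 2.80 CPM in Mutant, 0.741 to 1.67 CPM in WT and 1.37 to 3.91 CPM in Null libraries.

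The WT response was tested against the others directly. The difference of the combination response between WT and Null was -1.46 ± 0.61 for MT1X (adjusted p = 0.938) and -1.33 ± 0.80 for MT2A (adjusted p = 0.938). The difference of the irradiation response between WT and Null was -1.01 ± 0.61 for MT1X and -0.68 ± 0.80 for MT2A (adjusted p = 1 for each). Of the 36 such tests limma, edgeR and DESeq2 each called 0, with 3, 2 and 2 at an unadjusted p under 0.05, and limma called 0.0290% of all genes for the irradiation and for the combination response of WT against Null, 0.0387% for each of those of Mutant against WT and none in the others. A difference between the WT response and the others was thus not established, and the intervals for MT2A reach from -2.38 to 1.02 for irradiation and from -3.03 to 0.38 for the combination. With the GC slope the irradiation response of MT2A was more negative in WT than in Null cells by -0.92 ± 0.20 (adjusted p = 0.0194), where 0.285% of all genes were called lower. It was the only call of the 36 in that fit, and in the other 8 comparisons of responses at most 2.02% of all genes were called, for the combination response of WT against Null.

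The ratio of MT2A to MT1E reads varied over the libraries, between 2.33 and 7.39, and is given without a test. Its mean was 7.04 ± 0.0687 in Mutant irradiation and 4.40 ± 1.33 in Mutant solvent libraries (SD, n = 2 each). In Null cells the ratios were 6.61 and 7.39 after irradiation, against a mean of 5.07 ± 1.24 in solvent (SD, n = 2). In WT cells it was 3.51 ± 0.804 after irradiation and 3.62 ± 1.83 in solvent, with the 2 solvent libraries at 2.33 and 4.92. Over the 24 libraries the log2 values of MT2A followed those of MT1X (Pearson r = 0.88) and MT1F (r = 0.76) more closely than those of MT1E (r = 0.68), and MT1E and MT1F were hardly related (r = 0.23). All of these values share the library, and the GC slope of the library went with MT1F (r = 0.66), MT2A (r = 0.61) and MT1X (r = 0.48) more than with MT1E (r = 0.12). The genes whose log2 values were most like the mean of the 4 members, among 10740 genes, were RAC1 (r = 0.925), FBXO7 (r = 0.925), RBM23 (r = 0.924), ANXA5 (r = 0.922) and FLOT1 (r = 0.918).

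MTF1, the zinc sensor that drives metallothionein genes, was expressed in all libraries and was called in no comparison. It had 8.65 to 32.1 CPM in Mutant, 9.25 to 29.4 CPM in WT and 7.06 to 24.6 CPM in Null libraries. Its difference after irradiation was -0.32 ± 0.26 over the lines (adjusted p = 0.444), and it followed the GC slope of the library closely (r = -0.94). SLC30A1, the plasma membrane zinc exporter that MTF1 also drives, had 19.9 to 54.5 CPM in Mutant, 26.3 to 53.2 CPM in WT and 17.7 to 32.7 CPM in Null libraries. It was higher in WT than in Null cells (0.41 ± 0.12, adjusted p = 0.0395) and was not called for any treatment, with -0.27 ± 0.14 after irradiation over the lines (adjusted p = 0.225). In the fit with the GC slope it was lower with APR-246 over the lines (-0.34 ± 0.11, adjusted p = 0.0187). None of the other 7 zinc exporters tested was called for a treatment, and SLC30A10, a manganese exporter of this family, was lower in Mutant than in WT cells (-0.27 ± 0.08, adjusted p = 0.0434).

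Zinc importers moved in both directions after irradiation. Of 13 tested, 3 were higher and 1 lower over the lines, with a median of 0.15 against -0.01 for all genes, while of the 20668 genes tested 6.84% were higher and 6.13% lower. SLC39A14, an importer of zinc, iron and manganese, fell by 1.11 ± 0.21 on the log2 scale (adjusted p = 0.00271). SLC39A1 and SLC39A8, which bring zinc in through the cell surface, rose by 0.70 ± 0.16 (adjusted p = 0.00806) and 0.62 ± 0.17 (adjusted p = 0.0229), and SLC39A2 rose by 0.21 ± 0.06 (adjusted p = 0.0356). After the combination 2 rose and 2 fell, against 7.63% and 6.29% of all genes, with SLC39A14 at -0.99 ± 0.21 (adjusted p = 0.00504), SLC39A8 at 0.81 ± 0.17 (adjusted p = 0.00472), SLC39A1 at 0.54 ± 0.16 (adjusted p = 0.0301) and SLC39A11 at -0.45 ± 0.14 (adjusted p = 0.039). None of the 13 was called for APR-246.

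Of 13 genes for copper and iron handling, SOD1, the copper-zinc superoxide dismutase, was the 1 called after irradiation, at 0.67 ± 0.19 over the lines (adjusted p = 0.0305), against 6.84% of all genes called higher and 6.13% lower. It was also higher after the combination (0.79 ± 0.19, adjusted p = 0.012), as was ATOX1, a copper chaperone (1.17 ± 0.30, adjusted p = 0.0171), where 7.63% of all genes were called higher. Between lines, SLC40A1, the iron exporter ferroportin, was higher in WT than in Null (0.84 ± 0.12, adjusted p = 0.000216) and in Mutant than in Null (0.41 ± 0.12, adjusted p = 0.0382), and lower in Mutant than in WT (-0.43 ± 0.12, adjusted p = 0.0364). COX17, a copper chaperone of the mitochondria, was lower than in Null cells in both Mutant (-0.47 ± 0.15, adjusted p = 0.0498) and WT cells (-0.54 ± 0.15, adjusted p = 0.025). Between these lines 4.59 to 6.11% of all genes were called in each direction.

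Genes that heavy metals induce outside the metallothioneins were called in both directions after irradiation. Of 11 tested, 3 were higher and 2 lower over the lines, against 6.84% and 6.13% of all genes, with a median of 0.17 against -0.01 for all genes. SLC7A11, the cystine importer, fell by 3.11 ± 0.55 on the log2 scale (adjusted p = 0.0019) and BAG3, a co-chaperone, rose by 1.07 ± 0.30 (adjusted p = 0.0283). The heat shock genes HSPA1A (1.77 ± 0.24) and HSPA1B (1.96 ± 0.25) rose, with adjusted p of 0.000415 and 0.000231, but they are near-identical neighbours whose reads may be split. Both also rose with APR-246, by 1.02 ± 0.24 (adjusted p = 0.0294) and 1.45 ± 0.25 (adjusted p = 0.0071), the only 2 of the list called for that agent, where 1.19% of all genes were called higher and 1.96% lower. After the combination 2 rose and 2 fell, against 7.63% and 6.29% of all genes, SLC7A11 by -2.44 ± 0.55 (adjusted p = 0.00748) and SRXN1, a sulfiredoxin that repairs peroxiredoxins, by -0.67 ± 0.20 (adjusted p = 0.0348).

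Of 8 glucocorticoid-induced genes tested, 1 was higher and 2 lower after irradiation over the lines, against 6.84% and 6.13% of all genes, with a median of -0.16 against -0.01 for all genes. SGK1, a kinase, rose by 1.59 ± 0.14 (adjusted p = 2.69e-05). TSC22D3, which encodes the leucine zipper protein GILZ, fell by 2.43 ± 0.26 on the log2 scale (adjusted p = 0.000104), and ERRFI1, an inhibitor of the EGF receptor, fell by 1.81 ± 0.38 (adjusted p = 0.00557). With APR-246, where 1.19% of all genes were called higher and 1.96% lower, SGK1 rose by 0.92 ± 0.14 (adjusted p = 0.00563), while TSC22D3 fell by 2.20 ± 0.26 (adjusted p = 0.00169) and DUSP1, a phosphatase of MAP kinases, fell by 1.05 ± 0.24 (adjusted p = 0.026). SGK1 and TSC22D3 were also lower in both Mutant and WT than in Null cells, by -0.61 ± 0.12 (adjusted p = 0.0029) and -0.84 ± 0.12 (adjusted p = 0.000204) for SGK1 and by -0.71 ± 0.22 (adjusted p = 0.0467) and -1.21 ± 0.22 (adjusted p = 0.00174) for TSC22D3. Of all genes 6.11% were called lower in Mutant and 5.74% in WT than in Null cells.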

How the data were processed

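RNA from 24 HCT116 libraries was read as paired reads of 100 bases. Per the submitters' processing notes, FastQC, STAR and featureCounts from Subread were used on GRCh38.p13. Versions, annotation release and counting strand are not given in the sources used here. The deposited values are CPM of reads assigned to genes, and 100% of values were whole reads within 0.05 of a read when divided by the step of 1 read. Even counts made up 74.5 to 81.5% of values of 2 to 9 reads, so mates seem to have been counted singly. Symbols were found for 60419 gene ids, and 58444 had an entry in GENCODE 29.

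Genes were kept by filterByExpr at a count minimum of 10 on the recovered reads, which left 20668. The test was limma-trend with robust variance (limma 3.58.1, edgeR 4.0.16, R 4.3.3) on the log2 of CPM scaled by TMM, after adding 0.5, with 12 group coefficients and 12 residual degrees of freedom, so fold changes of low genes are understated. Members were called at a Benjamini-Hochberg adjusted p under 0.05 over all genes, in 35 comparisons. Alternatives were edgeR's quasi-likelihood test and DESeq2 1.42.0 on recovered reads, other scalings, pseudocounts and filters, a replicate block, the GC slope (98.3% of genes have a GC value), fits on single lines and each library left out in turn. The fit was tested on simulated data. The members and gene lists were chosen with earlier results of these data known. Always named were the 8 members, MTF1 and SLC30A1. A check of the line labels by expression is not reported here. From each other list up to 4 called genes per comparison were named, those with the largest log2 difference, together with the 5 genes most like the mean of the tested members.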

Additional observations from a re-analysis of the deposited data

How the results depend on the processing

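The 140 member tests gave 3 calls. Of 108 member differences, signs turned under an alternative in 37 of 1224 values, 12 of them with the GC slope (MT1F after irradiation in Mutant cells was -0.38 with it and 0.17 without), and in 121 of 2592 with 1 library left out, never where either value was called. edgeR, upper-quartile scaling, a count minimum of 50 and pseudocounts of 1 or 0.1 left the counts of calls within 1.5 times, as did fits on single lines for the comparisons within a line. The GC slope took calls to 11 of 20 for treatments averaged over the lines (1 without it), 8 of 12 for irradiation and 7 of 12 for the combination against solvent (0 without it), 2 of 12 for the combination against APR-246, 5 of 12 for lines in solvent, 8 of 12 for lines averaged over treatments (2 without it) and 1 of 36 for responses between lines. Deposited CPM without TMM scaling gave 2, 1, 1, 1 and 7 calls for averaged treatments, irradiation, the combination, lines in solvent and averaged lines. It also moved the median of all genes by over 0.1, to 0.19 for the combination against solvent in WT cells (0.04 with TMM). DESeq2 called 2 for averaged treatments and 4 for averaged lines, and no filter left 1 for averaged lines, where MT2A in Mutant minus WT had an adjusted p of 0.0529.

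Replicate numbers shared by the groups do not pair the libraries by the labels: deviations of same-numbered libraries correlated above 0.1 in 55 of 66 group pairs (r = 0.38 to 0.90), and below -0.1 in the 11 pairs with Null APR-246 (r = -0.56 to -0.14). With the replicate block the calls were 5 for averaged treatments, 4 for irradiation, 3 for the combination, 1 for lines in solvent and 8 for averaged lines. For the combination against solvent they were MT2A, MT1E and MT1X, in WT cells and over the lines. For irradiation they were MT1E in each line, MT1X in WT cells, and both over the lines. For lines in solvent it was MT1E in Mutant against Null. For averaged lines they were MT2A, MT1E and MT1X in Mutant against Null and MT2A, MT1F and MT1X in Mutant against WT. In WT against Null they were MT1E and MT1F. The block with the GC slope gave 10 for averaged treatments, 8 for irradiation, 7 for the combination, 5 for lines in solvent and 8 for averaged lines. It also gave 1 for APR-246 against solvent, 1 for the combination against APR-246 and 2 for responses between lines. The cause was not tested. Shares of all genes called are not given for these fits, nor for the fit without TMM scaling. The counts of member calls in them are therefore no result particular to the members. For MT1E after irradiation in WT cells the standard error was 0.22 with the block and 0.36 without it.

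Leaving out 1 library at a time gave 1 to 2 calls for averaged treatments and 1 to 4 for averaged lines, and 0 to 0 elsewhere. The MT2A call for Mutant minus WT was lost without replicate 1 of WT solvent, APR-246, irradiation or combination, without either Mutant irradiation library, and without replicate 2 of Mutant solvent, APR-246 or combination, at log2 differences of 0.90 to 1.09. With 2 libraries per group, standard errors of log2 differences between groups had a median of 0.32 over all genes, and 0.57 for MT2A and MT1F. The 4 members near the detection limit stay under the depth at which a difference could be tested.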

Other observations

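Reads of 12 other metallothionein genes were low throughout. MT4, which is known from squamous epithelium, and MT1IP had 0 reads in all 24 libraries, MT1HL1 had 1 read in all and MT3, the brain metallothionein, had 25. Only the pseudogenes MT2P1, MT1DP and MT1JP passed the count filter. MT2P1 had 18 to 88 reads per library, or 0.0952 to 0.284% of those of MT2A. None of its 84 windows of 100 bases occurred in another gene, but 15.7% of its windows of 50 bases did, with MT2A the main partner. The log2 values of MT2P1 followed those of MT2A over the libraries (Pearson r = 0.87). Whether reads counted for MT2P1 came from MT2A was not tested. MT1DP was higher in Mutant than in WT cells by 0.62 ± 0.15 (limma, adjusted p = 0.0152), and was the only one of the 3 called in any comparison averaged over lines or treatments. Its 2 libraries in each group held 0.358 and 0.587 CPM in Mutant combination and 0 and 0 CPM in WT combination, and 0.266 and 0.242 CPM in Mutant solvent and 0.0721 and 0.0730 CPM in WT solvent. WT APR-246 held 0 and 0.551 CPM, so its libraries did not match each other for MT1DP, as they did not for MT1F.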
